A study of Mus musculus with 25 samples.

Results

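The 6 genes described here, Bdnf, Ntf3, Ntrk2, Ntrk3, Ngfr and Vgf, were chosen by symbol as members of the neurotrophin system of the brain, out of 23990 genes listed in the expression table. Neurotrophins are small secreted growth factors made as longer precursors, which proteases cut to the mature form. Mature BDNF and NT-3 bind receptor tyrosine kinases of the Trk family and signal through the MAP kinase, PI3 kinase and phospholipase C pathways, whereas the precursors bind the p75 receptor together with sortilin-type proteins. In the adult cortex Bdnf is transcribed in excitatory neurons in response to synaptic activity, and VGF is a secreted granin-like precursor protein that BDNF itself induces.

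The study sequenced total RNA of the prefrontal cortex of wild type C57BL/6 mice aged 10 weeks, 13 male and 12 female samples in 6 groups. Each sex had a control group and groups that went through social defeat stress with vehicle or with dihydrocaffeic acid and malvidin-glucoside, given from before the stress paradigm until its end. Only the 5 libraries of the male group under social defeat stress with vehicle (replicates 1 to 5) have columns that match a label, by the number in the column name, on the assumption that a column letter stands for a group. The other 5 groups were not analysed here, so the values describe level and spread within stressed males and hold no effect of stress, compound or sex. Whether the 5 libraries stem from 5 mice is not in the labels, and the p-values measure only the spread among these libraries, which can include technical spread.

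Reads assigned to genes numbered 34565147 to 44265039 per library. Excitatory and inhibitory neuron, astrocyte, oligodendrocyte and microglia markers were all at a mean of 1 CPM (reads per 1000000 of the effective library size) or more, 6 of 6 in each list. Low read numbers were mostly even. Of values between 1 and 9 reads, 71.1% were even, against 50.8% of values of 1000 reads or more, and Ntf3 and Ngfr had even read numbers in 5 of 5 libraries. If both mates of a read pair were counted, the number of independent observations is closer to the reads divided by 2. Intervals below are therefore exact 95% Poisson intervals on reads divided by 2, which cover counting error only, and each test of spread is given on reads and on reads divided by 2.

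Promoter sequence of Bdnf is shown because the reads of Bdnf are summed over all of its start sites. CREB, a factor activated by neuronal activity, is a known regulator of Bdnf. Bdnf (chromosome 2, 109674700 to 109727007, plus strand, GRCm38) has 11 annotated transcripts, 9 distinct transcript starts and 6217 bases of exon, and it is known for a series of alternative 5′ exons, each with its own promoter, spliced to a shared coding exon. RefSeq promoter windows (GRCm38.p6, 250 bases before to 50 after a start) were matched for 4 of the 6 genes, with 7 windows for Bdnf, 2 for Ntf3 and 1 each for Ntrk2 and Ngfr. The cAMP response element, bound by CREB, reads TGACGTCA in full, and its 5-base core TGACG was searched on both strands. The core was found in 1 of these 11 windows and the full element in 0 of 11, against 20.8% and 1.79% of 32851 windows over all genes. Every full element contains the core. The E-box CACGTG was found in 1 of the 11 windows, an Ntf3 window, against 7.15% of all windows. The 250 bases before the third and before the first Bdnf start, on the plus strand, are given below, with the core in capitals where it occurs, there read from the opposite strand.
Bdnf, before the third start, chr2:109692186-109692435: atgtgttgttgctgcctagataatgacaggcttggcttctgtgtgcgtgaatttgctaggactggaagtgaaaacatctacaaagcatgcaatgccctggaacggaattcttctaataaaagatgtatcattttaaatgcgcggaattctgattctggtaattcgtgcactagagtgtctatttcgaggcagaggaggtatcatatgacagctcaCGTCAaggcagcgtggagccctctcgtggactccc
Bdnf, before the first start, chr2:109674450-109674699: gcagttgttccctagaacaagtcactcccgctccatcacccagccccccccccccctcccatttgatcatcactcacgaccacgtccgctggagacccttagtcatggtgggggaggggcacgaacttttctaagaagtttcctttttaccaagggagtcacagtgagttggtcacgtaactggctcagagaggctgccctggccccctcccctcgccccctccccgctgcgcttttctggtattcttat
The core before the third start begins 35 bases upstream of it. The window before the first start holds no TGACG on either strand, which says only that these letters are not there.

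Of the ligand genes described here, Bdnf had the highest level per exon length. Bdnf stood at 23.8, 30.1, 24.4, 31.3 and 28.8 CPM in replicates 1 to 5, from 989 to 1150 reads per library, with a mean of 27.7 ± 3.38 CPM (SD, n = 5). Replicates 1 and 3 were low and replicate 4 was high, 1.31 times replicate 1, and the 95% interval of replicate 1 (21.7 to 26.0 CPM) lay below that of replicate 4, whose lower bound was 28.7 CPM. The spread of Bdnf between libraries exceeded counting error (chi-square test over all genes, Benjamini-Hochberg adjusted p = 8.32e-13 on reads and 6.42e-06 on reads divided by 2). Part of the exon sequence of Bdnf, 896 bases or 14.4%, is also annotated to the antisense gene Gm45346, and whether reads were counted by strand is not given in the sources used here.

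The ligand Ntf3 encodes NT-3, the preferred ligand of TrkC (chromosome 6, 126101412 to 126166910, minus strand). It stood at 0.674, 0.157, 0.404, 0.406 and 0.402 CPM in replicates 1 to 5, from 28, 6, 18, 14 and 16 reads. Replicate 1 was the highest library and replicate 2 the lowest, but their intervals of 0.368 to 1.13 CPM and 0.0324 to 0.459 CPM overlapped. The spread passed the test on reads (adjusted p = 0.0173) and did not pass it on reads divided by 2 (adjusted p = 0.251). It also did not pass on reads without replicate 1 (adjusted p = 0.201) or without replicate 2 (adjusted p = 0.230), so variation of Ntf3 beyond counting error was not established at this depth.

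Ntf5, which encodes NT-4, a further ligand of TrkB, had no reads in replicate 3 and at most 0.418 CPM in replicate 2, and is named with its values known. A count of 0 in replicate 3 allows up to 0.135 CPM, taken as 3 read pairs. Per exon length, Bdnf reached 4.45 ± 0.544 RPKM (CPM per kilobase of exon; SD, n = 5).

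Among the receptors, Ntrk2 is the gene of the BDNF receptor TrkB (chromosome 13, 58806569 to 59133970, plus strand). Its values were 673, 654, 645, 697 and 730.5 CPM in replicates 1 to 5, with a mean of 680.0 ± 34.6 CPM (SD, n = 5). Replicate 5 was the highest and replicate 3 the lowest, 1.13-fold apart. These values sum all isoforms. The annotation holds 7 complete coding transcripts of Ntrk2 with 5 coding lengths, from 466 to 821 codons, and TrkB is known to occur both with its kinase domain, mainly in neurons, and as a truncated receptor without it, abundant in astrocytes. The summed astrocyte markers lay between 4766 and 5342 CPM, all 6 of them detected, and their part in the Ntrk2 level was not tested.

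Ntrk3, which encodes the NT-3 receptor TrkC (chromosome 7, 78175959 to 78738012, minus strand), stood at 174, 197, 173, 204 and 197 CPM, with a mean of 189 ± 14.3 CPM (SD, n = 5). Replicates 1 and 3 were low, as for Bdnf, and replicate 4 was again the highest, 1.18 times replicate 3. TrkC also has isoforms without a kinase domain, and the annotated complete coding transcripts of Ntrk3 run from 612 to 864 codons. The spread exceeded counting error for both genes on reads divided by 2, with an adjusted p of 1.72e-28 for Ntrk2 and 8.09e-17 for Ntrk3.

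Ngfr encodes the p75 receptor, which in the adult forebrain is known mainly from cholinergic neurons of the basal forebrain and from peripheral glia and perivascular cells (chromosome 11, 95568818 to 95587735, minus strand). It was low in these cortex libraries, at 1.78, 1.73, 1.12, 1.04 and 0.804 CPM in replicates 1 to 5, from 74, 66, 50, 36 and 32 reads. Replicates 1 and 2 were the highest and replicate 5 the lowest, where the interval was 0.459 to 1.31 CPM against 1.25 to 2.45 CPM in replicate 1. The spread passed the test on reads (adjusted p = 0.000265) and lay close to the threshold on reads divided by 2 (adjusted p = 0.0465). The 5 cholinergic markers summed to 1.05 to 2.15 CPM, most of it from 1 gene, Slc5a7, with a mean of 1.23 CPM. The choline acetyltransferase gene Chat had a mean of 0.122 CPM, from 2 to 10 reads per library. That mean is below the level of 3 read pairs (0.135 to 0.174 CPM). The lowest pair of Ngfr, replicates 4 and 5, was also the lowest pair of the sums of 3 of 15 marker lists. The same pair was lowest in 13.5% of the 9884 genes of at least 10 CPM. The 6 Schwann cell and peripheral glia markers, Ngfr among them, summed to 165, 159, 188, 147 and 130 CPM in replicates 1 to 5. The 6 oligodendrocyte precursor markers summed to 334, 299, 311, 241 and 270 CPM, and the mature oligodendrocyte sum was 4013 and 4095 CPM in replicates 4 and 5 against 6157 to 8757 CPM in the others. The summed pericyte and mural markers ran from 174 CPM in replicate 3 to 206 CPM in replicate 1, and the summed meningeal and fibroblast markers were highest in replicate 4 (93.4 CPM). The part of these cell classes in the Ngfr values was not tested.

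Vgf encodes the secreted VGF precursor, whose peptides are stored in dense-core vesicles (chromosome 5, 137026392 to 137033351, plus strand). It stood at 352, 447, 360.0, 414 and 394 CPM in replicates 1 to 5, with a mean of 394 ± 39.1 CPM (SD, n = 5). Replicates 1 and 3 were again the lowest pair, and replicate 2 was the highest, 1.27 times replicate 1. The spread had an adjusted p of 1.51e-64 on reads divided by 2.

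**Figure D1:**
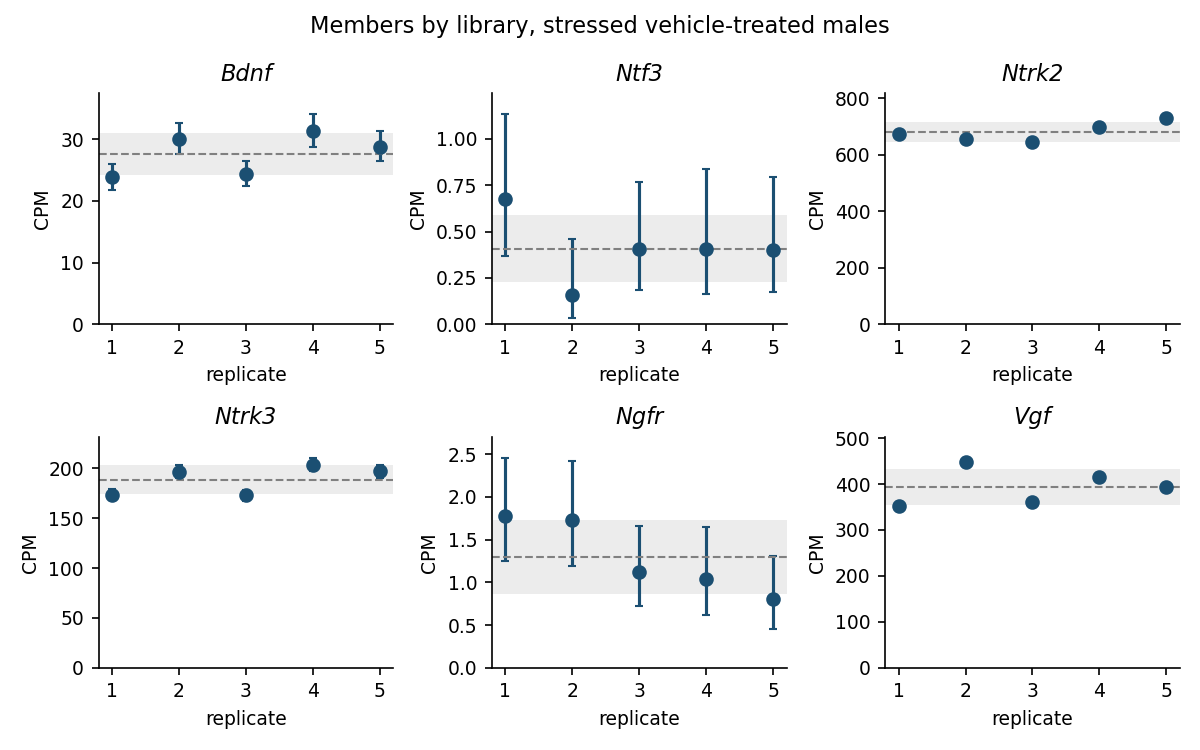
CPM (scaled reads) of the 6 genes in each of the 5 libraries of stressed, vehicle-treated males, with exact 95% Poisson intervals on reads divided by 2, which are smaller than the points for Ntrk2, Ntrk3 and Vgf. The dashed line is the mean and the grey band 1 SD to each side; Bdnf, Ntrk3 and Vgf are lowest in replicates 1 and 3, and the Ntf3 intervals overlap.

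Levels of different genes were compared per exon length only. In RPKM the order was Vgf (132 ± 13.2), Ntrk2 (35.3 ± 1.79), Ntrk3 (6.26 ± 0.474), Bdnf (4.45 ± 0.544), Ngfr (0.376 ± 0.126) and Ntf3 (0.238 ± 0.107), each a mean ± SD over 5 libraries. Every library of a gene was above every library of the next in this order, except for Ngfr and Ntf3, whose values overlapped (0.233 to 0.517 and 0.0915 to 0.393 RPKM). Dividing by the longest transcript in place of all exons gave the same order, but raised Ntrk2 to 77.8, Ntrk3 to 9.58 and Bdnf to 6.48 RPKM, with Vgf at 138.9 RPKM. The message of the peptide precursor VGF stood 3.76-fold above that of TrkB per all exons and 1.79-fold above it per longest transcript, and that of TrkB stood 5.63-fold and 8.12-fold above that of TrkC. The median over the 14524 genes whose mean reached 1 CPM was 4.93 RPKM, close to the level of Bdnf.

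**Figure D2:**
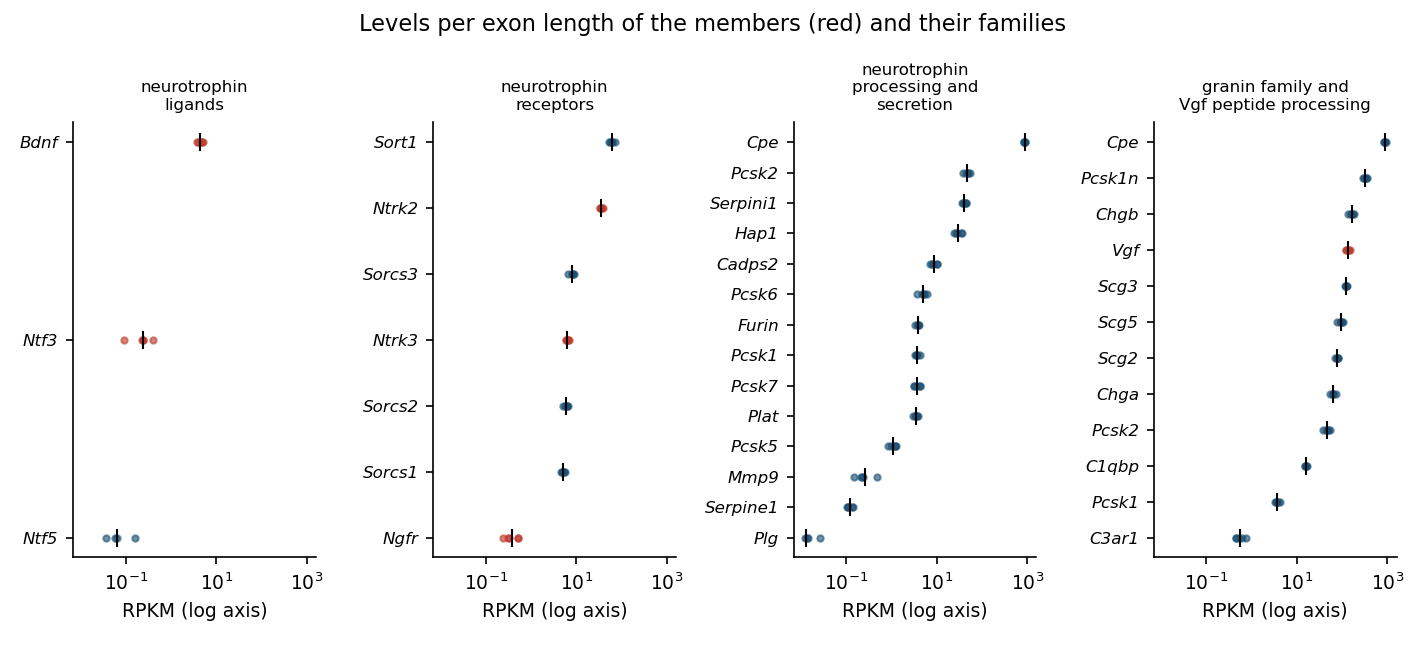
RPKM on a log axis for the 6 genes (red) and for other genes of 4 lists (blue), with a point for each of the 5 libraries and a bar at the mean; libraries without reads are not drawn. Vgf lies with the granins at 132 RPKM and Ntrk2 next to Sort1, whereas Ngfr and Ntf3 lie below 1 RPKM.

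Of the 6 members, 6 passed the test for variation beyond counting error on reads, as did 74.4% of all 19239 genes tested, and 5 passed on reads divided by 2, as did 45.5% of all genes. So many genes passed that the count says little about the members. The coefficient of variation beyond counting error, computed on reads, was 11.8% for Bdnf, 9.91% for Vgf, 7.48% for Ntrk3 and 5.05% for Ntrk2, against a median of 8.25% over genes of at least 1 CPM. Among the 500 genes nearest in mean level, Bdnf was at percentile 82.2 and Vgf at 81.2, Ntrk3 at 66.2 and Ntrk2 at 29.8. Ngfr (30.5%) and Ntf3 (37.3%) were at percentiles 73.2 and 59.8, and on reads divided by 2 their values were 27.2% and 27.9%.

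**Figure D3:**
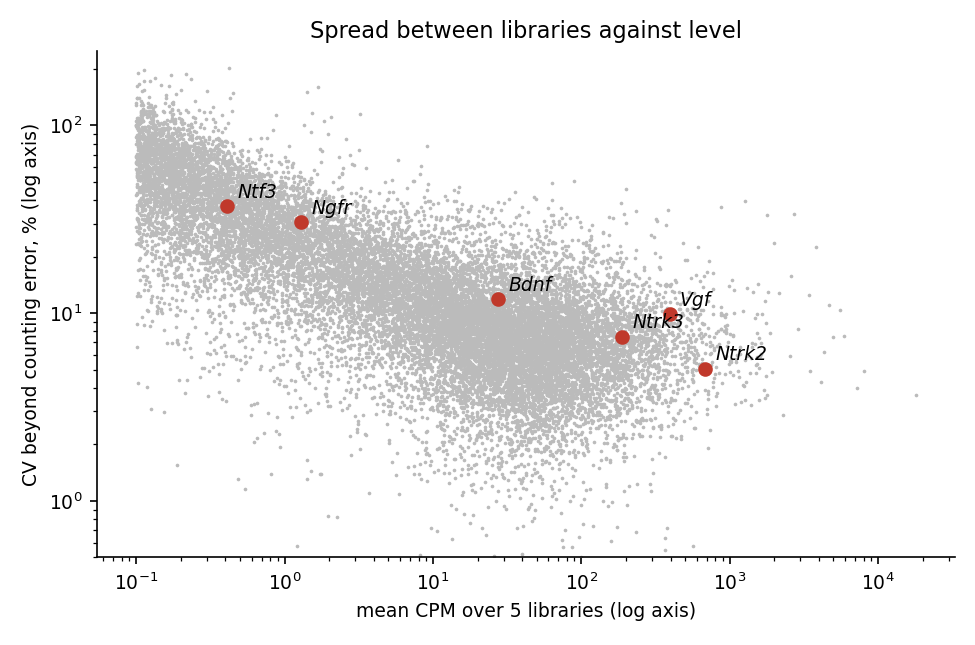
Coefficient of variation beyond counting error, computed on reads, against mean CPM over the 5 libraries, both on log axes, for genes of at least 0.1 CPM (grey) and the 6 members (red); genes with a value of 0 or outside the axis range are not drawn. Bdnf (11.8%) and Vgf (9.91%) lie above the middle of genes of like level and Ntrk2 (5.05%) below it.

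Bdnf, Ntrk3 and Vgf shared the same low libraries, a pattern noticed after their values were seen. In these 3 of the 4 members of at least 10 CPM, replicates 1 and 3 were the lowest pair, as they were in 8.94% of the 9884 genes at that level. The pair was lowest for all 3 genes also with scaling to total reads and with median-of-ratios scaling. On the log2 scale, replicates 1 and 3 were at -0.21 and -0.17 relative to the mean of the 5 libraries for Bdnf, at -0.12 and -0.12 for Ntrk3 and at -0.15 and -0.12 for Vgf. The gap to the next library was 1.18-fold for Bdnf, 1.13-fold for Ntrk3 and 1.09-fold for Vgf. Ntrk2 did not have this order: its lowest pair was replicates 2 and 3, and replicate 1 was at -0.01.

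The members were also compared by the root mean square difference between their centred log2 values over the 5 libraries, a description in which all genes share the same libraries and their depth. Of 9871 genes of at least 10 CPM, Ntrk3 was number 14 in likeness to Bdnf (difference 0.065) and Vgf number 21 (0.069), while Ntrk2 was number 2143 (0.145). The median gene differed from Bdnf by 0.179. The 5 genes most like Bdnf were Coprs, Grasp, Tyrobp, Arhgap39 and Lrrc7, with differences of 0.041 to 0.056. Coprs, the most alike, stood at 16.4, 19.8, 15.6, 19.9 and 18.9 CPM in replicates 1 to 5, and Grasp at 34.4, 47.0, 37.3, 48.3 and 45.1 CPM. The 5 genes most like Vgf were Lrrc24, Rabepk, Tyrobp, Ficd and Flrt1, with differences of 0.032 to 0.042, and Bdnf was number 74. These ranks take no account of counting error. For Bdnf in replicate 1, the Poisson interval given above was 21.7 to 26.0 CPM. Coprs and Tyrobp had lower mean levels than Bdnf (18.1 and 11.1 against 27.7 CPM). The order among the most alike genes, Ntrk3 and Vgf included, could therefore change with counting error alone.

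Cell type markers differed between the same libraries. The 6 excitatory neuron markers summed to 6812, 7130, 6982, 8235 and 7415 CPM in replicates 1 to 5, with replicates 1 and 3 the lowest pair, and all 6 had reads in every library. The summed lowest pair was replicates 1 and 3 in 2 of 15 marker lists, those of excitatory neurons and endothelial cells, but singly in 0 of the 6 excitatory neuron markers and in 1 of the 6 endothelial markers, Flt1. The 6 mature oligodendrocyte markers summed to 7098, 6157, 8757, 4013 and 4095 CPM, so that the libraries low in Bdnf, Ntrk3 and Vgf had the highest myelin sums. The upper cortical layer markers summed to 499 CPM in replicate 4 and to 254 CPM in replicate 3, and to 264 CPM in replicate 2, where Vgf was highest. The part of these cell classes in the shared order was not tested. In bulk tissue, fewer cells of a type and less RNA per cell cannot be told apart.

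**Figure D4:**
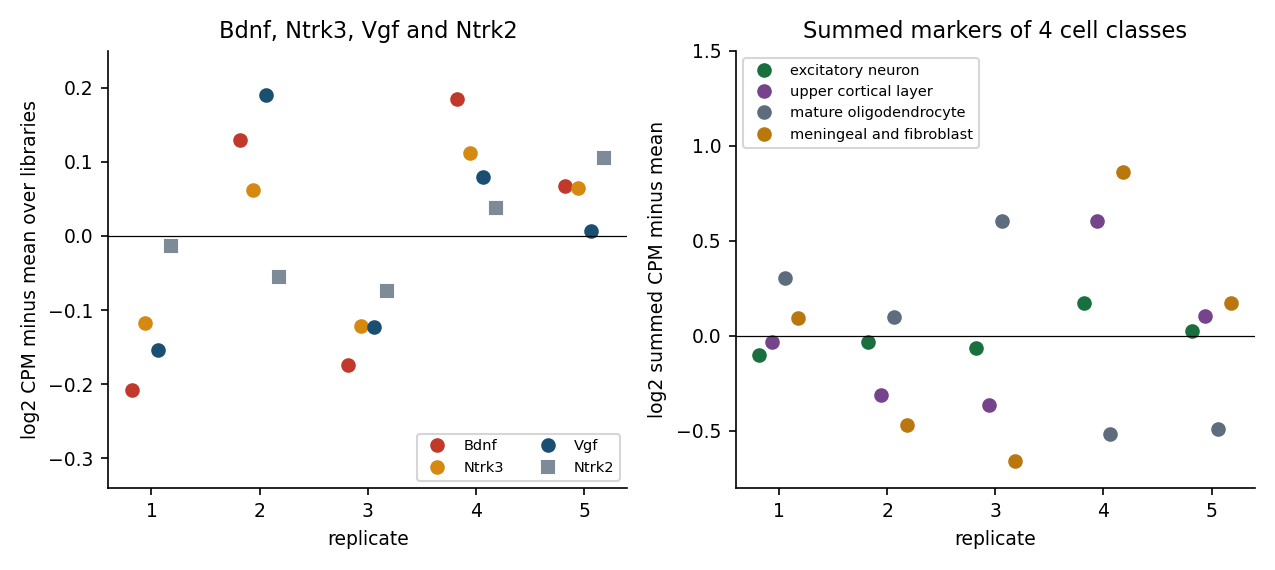
Left, log2 CPM minus the mean over the 5 libraries for Bdnf, Ntrk3, Vgf (circles) and Ntrk2 (squares); right, the same for the summed CPM of 4 marker lists, on a wider axis. Points of 1 replicate are offset sideways; Bdnf, Ntrk3 and Vgf lie below 0 in replicates 1 and 3, the replicates with the highest mature oligodendrocyte sums.

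The rest of the pathway was described from 8 lists holding 109 listed genes, of which 107 had enough reads to be tested. Of these, 102 varied beyond counting error on reads (95.3%, against 74.4% of all genes tested) and 88 on reads divided by 2 (82.2%, against 45.5%). The same shares of all genes are the background of each list's count below. This background differs in level: 93 of the 107 pathway genes reached 10 CPM, against 9884 of all 19239 tested. The chi-square test detects the same relative spread more readily at higher read numbers. The higher shares therefore do not show that pathway genes vary more than genes of like level, which was not tested for the pathway genes. The median coefficient of variation of the 103 genes of at least 1 CPM was 8.71%, against 8.25% over all such genes. Of the 93 pathway genes of at least 10 CPM, 14 (15.1%) had replicates 1 and 3 as the lowest pair, against 8.94% of all genes at that level. The 14 include the 3 members in which the pattern was first noticed, which raises their share. The others included Lingo1, a p75 co-receptor, at 312, 378, 345, 406 and 395 CPM, Slitrk5, a TrkB co-receptor, at 72.5 to 86.6 CPM, and Kidins220, a scaffold of Trk receptors, at 329 to 354 CPM; these 3 were singled out after their values were seen.

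In the receptor list, 7 of 7 tested genes varied on reads and on reads divided by 2. Sort1, the sortilin gene, whose product binds proneurotrophins with p75, was its highest member per exon length at 59.8 ± 6.32 RPKM (SD, n = 5), and ran from 402 CPM in replicate 1 to 526 CPM in replicate 4. In the list of p75 partners 9 of 10 varied on reads and 8 on reads divided by 2. Arhgdia (147 ± 7.45 RPKM) and Bex3, which encodes a p75-associated adaptor (121.5 ± 10.2 RPKM), led it, and Ripk2, a kinase that p75 can recruit, had the widest spread, from 4.52 to 6.96 CPM. The mean levels of the p75 partners ran from 2.09 to 147 RPKM, all above the 0.233 to 0.517 RPKM of Ngfr itself.

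Of the genes for processing and secretion, 12 of 13 tested varied on reads and on reads divided by 2. The carboxypeptidase gene Cpe, which acts in the sorting and trimming of prohormones and proBDNF, was at 874 ± 25.2 RPKM (SD, n = 5) with a coefficient of variation of 2.86%. The prohormone convertase gene Pcsk2 was at 46.5 ± 6.01 RPKM, from 297 CPM in replicate 1 to 425 CPM in replicate 4. Hap1, whose huntingtin-associated product takes part in BDNF transport, had the widest spread of this list, from 90.8 CPM in replicate 3 to 139 CPM in replicate 5. In the granin list, 12 of 12 genes varied on reads and 10 on reads divided by 2. After Cpe it was led by Pcsk1n, the gene of the convertase inhibitor proSAAS, at 326 ± 27.3 RPKM, and C3ar1, a receptor reported for a VGF peptide, ran from 1.91 to 3.25 CPM.

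In the list of Trk adaptors and signalling, 36 of 36 genes varied on reads and 29 on reads divided by 2, with a median coefficient of variation of 6.59%. Map2k1, a kinase gene of the MAP kinase cascade, was among its most abundant at 74.9 ± 5.33 RPKM (SD, n = 5). Gab1, a docking adaptor of receptor kinases, had the widest spread, with its highest value, 46.6 CPM, in replicate 3 and its lowest, 26.0 CPM, in replicate 4. The mature oligodendrocyte sum was also highest in replicate 3 and lowest in replicate 4, and its part in the Gab1 spread was not tested.

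Among transcription factors and cofactors that act on Bdnf, 10 of 12 varied on reads and 8 on reads divided by 2. Mef2d (41.0 ± 1.46 RPKM) and Mef2c (34.7 ± 5.32 RPKM), activity-regulated factors, led the list (SD, n = 5). Npas4, a neuronal activity-induced factor, had its widest spread, from 9.08 CPM in replicate 3 to 15.2 CPM in replicate 4. Of genes known to respond to activity or BDNF, 18 of 19 varied on reads and 17 on reads divided by 2, with a median coefficient of variation of 14.8%. Vgf was the highest of them per exon length, followed by the granin Scg2 at 76.9 ± 4.99 RPKM, and the zinc-finger factor Egr2 had the widest spread, from 2.02 CPM in replicate 3 to 4.93 CPM in replicate 4. Replicate 4 was the highest library in 14 of these 19 genes, Bdnf included and Vgf not, and in 26.8% of the 14524 genes of at least 1 CPM. The sums of 7 of the 15 marker lists were also highest in that replicate. Among these were the upper cortical layer markers (499 CPM, against 254 to 352 CPM in the others, with 6 of 6 markers highest there) and the excitatory neuron markers (8235 CPM, against 6812 to 7415 CPM, with 3 of 6). Meningeal and fibroblast markers (93.4 CPM, against 32.6 to 58.0 CPM) and blood markers (192 CPM, against 98.8 to 167 CPM) were also among them. So were endothelial markers (243 CPM, against 198 to 214 CPM, with 4 of 6). Astrocyte markers (5342 CPM, with 1 of 6) and cholinergic markers (2.15 CPM) were only slightly above replicate 1 (5305 and 2.02 CPM). The deep cortical layer markers went the other way, lowest in replicate 4 (286 CPM, against 333 to 390 CPM), with 0 of 5 highest there. The mature oligodendrocyte sum (4013 CPM) and the oligodendrocyte precursor sum (241 CPM) were also lowest in that replicate. The part of these cell classes in the high values of replicate 4 was not tested.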

How the data were processed

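Gene-level log2 values of prefrontal cortex RNA were deposited as a table of 25 sample columns. Columns were named by letter and number, and 20 that no label ties to a group were not used. Per the submitters' processing notes the authors' tools included STAR 2.6.1d, SAMtools 1.9, featureCounts of Subread 1.6.3 and edgeR, with mm10/GRCm38. The form of the deposited log2 values, log2 CPM with 0.5 added to the reads and an effective library size, was inferred: 100% of values gave whole reads within 1e-06.

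Reads, CPM and RPKM (GENCODE M21 exon lengths, GRCm38) were computed with Python 3.11.15, numpy 2.4.6, pandas 2.3.3 and scipy 1.17.1, and plots drawn with matplotlib 3.10.9. Symbols were matched for 23846 of 23990 identifiers. Totals of 34565147 to 44265039 reads put 3 read pairs at 0.135 to 0.174 CPM. Spread was tested per gene by a chi-square test that reads follow the effective library size (4 degrees of freedom, mean of at least 5 reads, Benjamini-Hochberg threshold 0.05), and tested on simulated data. The repeat on reads divided by 2 was chosen after the even read numbers were seen. Alternatives were total-read and median-of-ratios scaling, other read filters, a likelihood ratio statistic, longest-transcript lengths, other added reads and leaving out each replicate.

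Beside the members, each pathway list names its 2 genes highest in RPKM, its widest spread among genes of at least 1 CPM and genes under 3 reads in every library, of which there were 0. Also named are the 5 genes of at least 10 CPM most like Bdnf and most like Vgf. Some genes that the rule names are not reported here. Members and lists were chosen with earlier results of these data known.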

Additional observations from a re-analysis of the deposited data

How the results depend on the processing

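On reads divided by 2, chosen after seeing the data, 8753 genes varied beyond counting error against 14308 on reads, and the adjusted p of Ntf3 was 0.251 against 0.0173. The number of genes stayed within 1.5 times the main count under the other alternatives (12646 to 15862, and 12646 to 13125 with a replicate left out). For Ntf3 the adjusted p was 0.00908 to 0.230 and the coefficient of variation 17.0% to 45.6% when each replicate was left out. The other 5 members passed the threshold under every alternative run. Apart from the division by 2 itself, these alternatives were run on reads. On reads divided by 2, Ngfr lay close to the threshold (chi-square test, adjusted p = 0.0465), and leaving out replicates was not tried there. Division by the longest transcript gave 6.48 RPKM for Bdnf, 77.8 for Ntrk2 and 9.58 for Ntrk3. Mean CPM of the 6 members moved by less than 1 SD in 42 of 42 cases. Leaving out 1 of 5 libraries cannot move a mean by 1 SD, so those cases could not have failed. Ntf3 had 6 to 28 reads per library and Ngfr 32 to 74, which limits what could be seen in them. A mean of at least 20 reads leaves Ntf3 untested. No paired analysis was possible because the columns used belong to 1 group.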
